A study of Mus musculus with 8 samples.

Results

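The genes that encode the proteins of the cytosolic ribosome were examined in dorsal cortex of mouse embryos at E15.5. Members were the rows of the gene count tables whose symbol has the form Rpl or Rps with a number, together with Rpsa, Rplp0, Rplp1 and Rplp2. Of 23284 gene rows, 84 matched this rule, and 80 of them had at least 10 counts in at least 4 of the 8 libraries. The kept members comprised 47 genes of the large subunit and 33 of the small subunit. The 4 members that were not kept were Rpl3l, Rpl10l and Rpl26, which had 0 counts in every library (a count of 0 allows up to 3 counts per library), and Rpl39l, with a total of 34 counts over all libraries. Whether a count of 0 came from the expression of a gene or from how reads were counted was not tested. All 80 kept members passed the expression filter of the group comparison, which was set on the libraries regardless of group.

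RNA was sequenced from 4 WT (wild type) cortices and 4 cortices labelled ErbB4 -/-, all of strain C57BL/6 at E15.5. ErbB4 is a receptor tyrosine kinase for neuregulins, and its loss is lethal to the embryonic heart, so ErbB4 -/- mice are kept alive by ErbB4 expressed from a cardiac promoter. WT and ErbB4 -/- mice were bred as separate homozygous lines, and the dissection left out the meninges and the ganglionic eminences. Litters were not given in the sources used here, so p-values measure the spread between these libraries.

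Each ribosome is built from a large subunit, which forms peptide bonds, and a small subunit, which reads the messenger RNA. Nearly every ribosomal protein is present as a single copy per ribosome, and the acidic stalk proteins Rplp1 and Rplp2 are exceptions. Growing cells adjust the whole set together, largely at the level of translation, through pyrimidine-rich starts of these mRNAs that respond to TOR signalling. Mammalian genomes also carry many processed pseudogenes of ribosomal protein genes, which are intronless copies of their mRNAs, and a short read from such a gene can map to several places.

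The libraries held between 28205703 and 48871480 gene counts. WT replicate 1 stood apart from the other 7 libraries. It was the highest library for 28.6% of the 14696 genes tested and the lowest for 30.6% of them, and its deviation followed transcript length. In the fifth of non-member genes with the shortest transcripts, at most 1758 bases, its log2 CPM (counts scaled to a common library total) exceeded the mean of the other 7 libraries by a median of 0.28, whereas in the fifth with the longest transcripts, at least 4896 bases, it was below that mean, at a median of -0.28. The median longest transcript of the members was 860 bases, against 3053 bases for the other tested genes. Counts over the whole Erbb4 gene were 8.93, 19.9, 25.3 and 19.2 CPM in WT replicates 1 to 4 and 21.1, 24.6, 20.6 and 23.4 CPM in the ErbB4 -/- libraries, so they were not lower in the latter. A sum over all exons does not show which exon an allele alters, and it checked no genotype label here. Xist was above 900 CPM in WT replicates 1 to 3 and under 4 CPM in WT replicate 4 and in all 4 ErbB4 -/- libraries, so this sex-linked pattern and the groups were partly confounded. The 12 cortical markers were all tested, and their summed level was 3954 to 4452 CPM in WT and 3870 to 4260 CPM in ErbB4 -/- libraries.

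Counts differed between members far more than between libraries. The mean over 8 libraries ran from 0.903 CPM for Rpl23a to 996 CPM for Rpl4, with a median of 31.6 CPM, and 28 members lay under 10 CPM. The 5 most abundant members carried 39.2% of all member counts. Per kilobase of exon, the highest members included Rpl8 (749 CPM per kb), Rpl4 (700.3 CPM per kb), Rplp1 (486 CPM per kb) and Rpl32 (468 CPM per kb), and the lowest were Rpl24 (0.213 CPM per kb), Rpl9 (0.621 CPM per kb), Rpl30 (0.704 CPM per kb), Rpl11 (0.796 CPM per kb) and Rpl21 (0.876 CPM per kb). The highest and lowest members thus differed 3520-fold per kilobase of exon, and 500.1-fold when the coding length was used instead, a measure added after the data were seen. Since the products of these genes enter the ribosome in near equal numbers, the sequences themselves were examined for how many reads of the study's length could be placed.

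Reads were single-end and 50 nucleotides long. For each member with a gene model, every 50-base window of its spliced coding sequence was therefore searched, with no mismatch, on both strands of the mouse genome (NCBIM37, the assembly also called mm9). Rpl41 had no model and was left out, which leaves 79 kept members. In 29 of these, 36.7%, every coding window also occurred somewhere else, compared with 0.493% of the 14201 other tested genes. The median share of windows with no other place in the genome, called single-copy windows here, was 9.73% for the members and 98.5% for the other tested genes. They include windows across an exon junction, which do not occur unbroken in the gene itself. For the 3 most counted members shown and the 4 with the fewest counts, the 50 bases at the centre of the longest coding exon are shown as examples, 5′ to 3′ on the coding strand, with capitals at bases that differ in the nearest other place within 3 mismatches.

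Rpl4: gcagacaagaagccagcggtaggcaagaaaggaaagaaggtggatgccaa
Rps3: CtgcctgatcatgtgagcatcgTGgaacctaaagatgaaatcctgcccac
Rpl8: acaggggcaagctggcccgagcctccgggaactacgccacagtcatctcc
Rps13: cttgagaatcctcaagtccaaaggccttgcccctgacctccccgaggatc
Rpl24: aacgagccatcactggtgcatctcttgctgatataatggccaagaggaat
Rps27: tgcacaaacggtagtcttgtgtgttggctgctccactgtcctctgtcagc
Rpl23a: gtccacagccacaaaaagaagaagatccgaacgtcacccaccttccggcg

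The windows of Rpl4 (chr9:64026114-64026163, plus strand) and Rpl8 (chr15:76735332-76735381, plus strand) had no other place in the genome within 3 mismatches. That of Rps3 (chr7:106627860-106627909, minus strand) had its nearest other place at 3 mismatches. The windows of the 4 least counted members all occurred unchanged elsewhere. Rps13 (chr7:123476502-123476551, minus strand) matched 5 other places, of which 3 lay in annotated pseudogenes and 2 in other genes. Rpl24 (chr16:55969666-55969715, plus strand) matched 2 other places, both in pseudogenes. Rps27 (chr3:90016886-90016935, minus strand) matched 3 other places, and 8 with up to 2 mismatches. Rpl23a (chr11:77996371-77996420, minus strand) matched 2 other places, and 10 with up to 2 mismatches.

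Across the 79 members, the mean CPM followed the number of single-copy coding windows, with a Spearman rho of 0.84. With windows that had no other place within 2 mismatches, rho was 0.54. The points share their 8 libraries, and rho is given as a description only. With the number of all coding windows, which is the coding length less 49 bases, rho was 0.26, and among the other tested genes rho between CPM and single-copy windows was 0.16. The 29 members without a single-copy window had a median of 3.29 CPM, and 26 of them lay under 15 CPM. The 47 members with some single-copy windows, but under 90% of their coding sequence, had a median of 72.2 CPM, and the 3 members above 90% had a median of 646 CPM. Exceptions existed in both directions. Rpl15, which had no single-copy coding window, was counted at 116 CPM, while Rpl30, with 50 such windows, was counted at 2.13 CPM. The members not kept lay outside this comparison. Of these, Rpl26 had 49 such windows, Rpl10l 519 and Rpl3l 671, with 0 counts in every library, and Rpl39l had 104. How the authors' counting treated reads with several places was not stated in the sources used here, and the part of multiple mapping in these levels was not tested beyond this comparison.

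**Figure D1:**
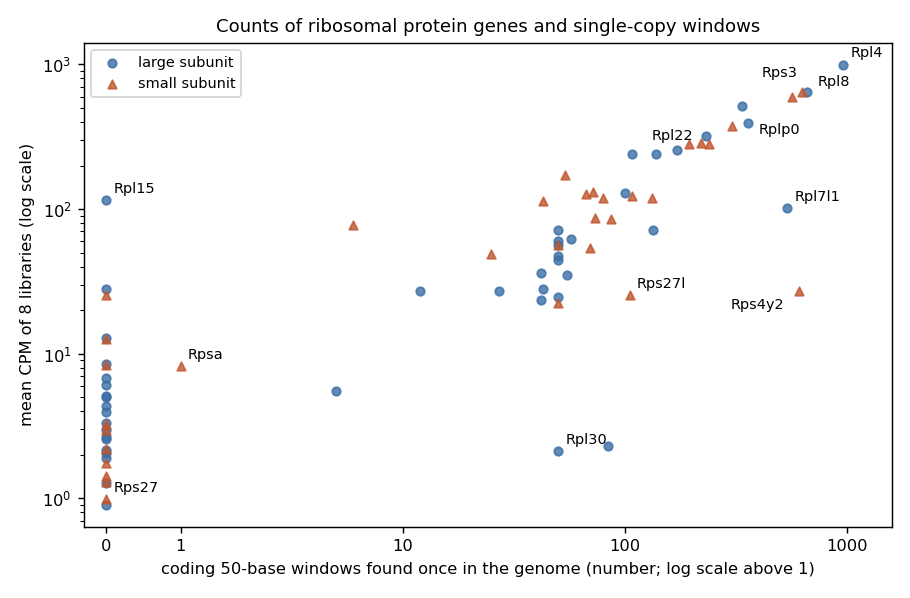
Mean CPM over 8 libraries (y axis, log scale) against the number of coding 50-base windows with no other place in the genome (x axis, log scale above 1) for 79 ribosomal protein genes. The 29 genes at 0 windows mostly lie under 15 CPM, the highest gene is Rpl4 at 996 CPM, and the paralog genes Rpl7l1, Rps27l and Rps4y2 lie under the genes with similar numbers of windows.

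Counts were also divided by the number of single-copy windows, for the members that are not minor paralogs. Over all 46 of these with any such window the range did not narrow, from 468-fold in CPM to 479-fold in CPM per window, with a lowest value of 0.0272 and a highest of 13.0 CPM per window, both in members with under 100 windows. Among the 18 members with at least 100 such windows that are not minor paralogs, levels ran from 71.7 to 996 CPM, a 13.9-fold range, and from 0.535 CPM per window (Rpl14) to 2.23 CPM per window (Rplp1), a 4.16-fold range with a median of 1.20. Members of both subunits with over 400 windows lay close together, with Rpl8 at 0.982, Rpl4 at 1.03 and Rps3 at 1.04 CPM per window. Rpl4 and Rpl8 are large subunit proteins near the peptide exit tunnel and the peptidyl transferase centre, and Rps3 is a small subunit protein at the messenger RNA entry. Untranslated exons were not part of this measure. By the same measure 3 minor paralogs with at least 100 windows lay below this range, at 0.189 CPM per window for Rpl7l1, 0.243 for Rps27l and 0.0447 for Rps4y2, while Rpl22l1, with 55 windows, lay within it at 0.639.

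The main comparison asked whether the cortex labelled ErbB4 -/- differed from WT in these genes. None of the 80 members passed the edgeR quasi-likelihood test at a Benjamini-Hochberg adjusted p of 0.05 over all 14696 genes, where 4 genes (0.0272%) did, and the smallest adjusted p of a member was 0.81. None had an unadjusted p under 0.05 either, against 5.53% of all tested genes. DESeq2 and limma-voom likewise gave 0 members with an adjusted p under 0.05 and 0 with an unadjusted p under 0.05, where 5.1% (DESeq2) and 5.72% (limma-voom) of all genes tested had such a p and DESeq2 called 23 genes. Log2 fold changes of ErbB4 -/- over WT ran from -0.34 (Rpl12) to 0.48 (Rpl21), with a median standard error of 0.12, and 78 of 80 were smaller than 0.25 in size. The median was -0.13, against 0.00 for all tested genes, and 74 of 80 members lay below 0, against 50.8% of all tested genes. Large subunit genes had a median of -0.11 with 42 of 47 below 0, and small subunit genes had a median of -0.14 with 32 of 33 below 0.

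The shared displacement rested on WT replicate 1. Without this library the members' median log2 fold change was -0.0018, with 41 of 80 below 0, against 50.6% of all genes tested. No member had an unadjusted p under 0.05, against 5.93% of genes, or an edgeR adjusted p under 0.05, against 0.0404%. Large subunit genes then had 23 of 47 below 0 and small subunit genes 18 of 33. Of the 80 members, 68 had their highest CPM in WT replicate 1, 37 of them large and 31 small subunit genes, against 28.6% of all tested genes, and 0 had their lowest CPM there, against 30.6%. Its members exceeded the mean of the other 7 libraries by a median of 0.42 on the log2 scale, and 77 of 80 were above that mean. The 3 members below it in this library were Rpl10, Rpl21 and Rpl23a. In the other 7 libraries the corresponding medians lay between -0.11 and -0.01. Removing each library's trend with transcript length from the fit left a median of -0.025 with 51 of 80 members below 0. The share of all genes below 0 in that fit is not given here, so this count has no background. No member had an unadjusted edgeR p under 0.05 in it, against 7.06% of all genes tested. The pattern was present in members of each class of single-copy windows. Of the 29 members without such a window, 19 were highest in WT replicate 1 and 23 had a log2 fold change below 0, with a median of -0.10. Of the 47 members with an intermediate share, 45 were highest in that library and 47 were below 0, with a median of -0.14. Without WT replicate 1 these classes had 12 of 29 and 26 of 47 below 0, with medians of 0.02 and -0.0040. The part of RNA quality or of library preparation was not tested.

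**Figure D2:**
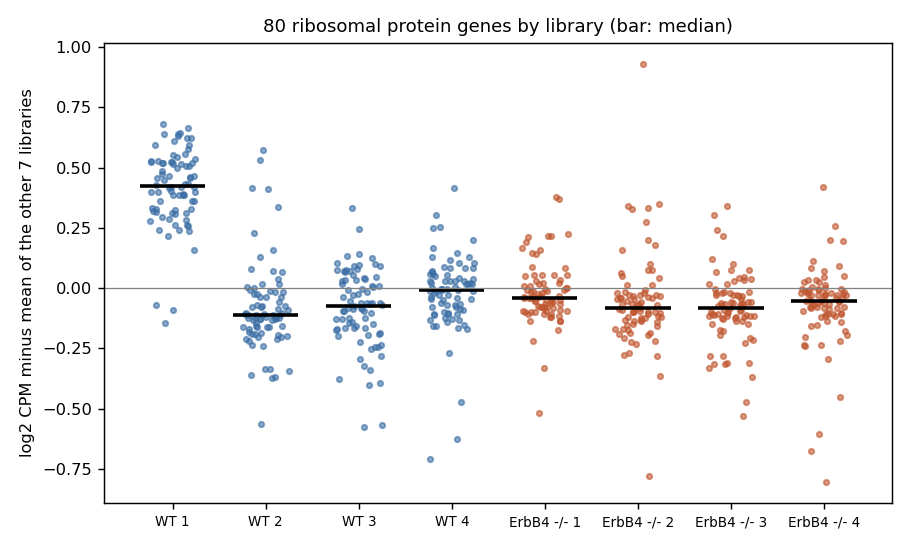
Log2 CPM of each of 80 ribosomal protein genes in a library minus its mean in the other 7 libraries (y axis), for 4 WT and 4 ErbB4 -/- libraries (x axis), with points for genes and bars for the median. The median of WT replicate 1 is 0.42, and those of the other 7 libraries lie between -0.11 and -0.01.

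**Figure D3:**
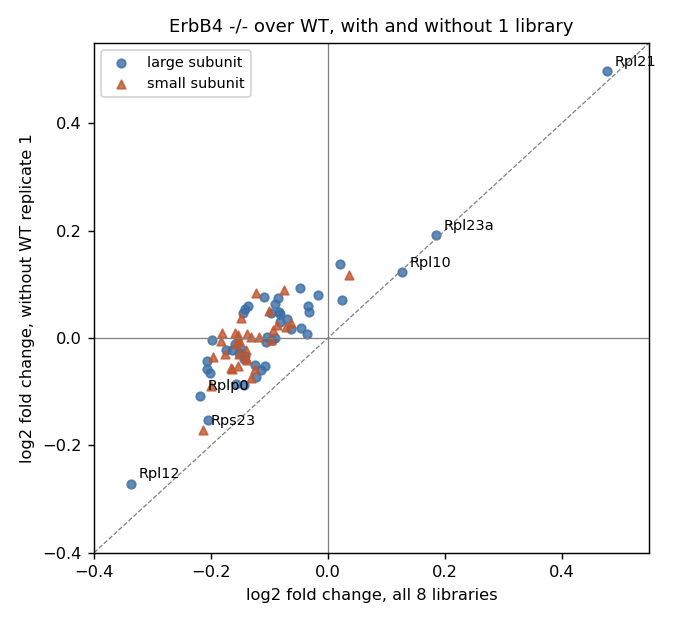
Log2 fold change of ErbB4 -/- over WT for each of 80 ribosomal protein genes with all 8 libraries (x axis) and without WT replicate 1 (y axis), with the dashed line at equality. Below 0 lie 74 genes on the x axis and 41 genes on the y axis.

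WT replicate 1 also widened the spread of the members within the WT group. The median SD of log2 CPM among the 4 WT libraries was 0.26 for the members and 0.16 for all tested genes. It was 0.11 and 0.10 without WT replicate 1. Among the 4 ErbB4 -/- libraries the members varied less than genes at large, with a median SD of 0.07 against 0.09. These medians are descriptions without a test.

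Summed over the 80 members, the share of all gene counts was 1.12%, 0.814%, 0.845% and 0.839% in WT replicates 1 to 4 and 0.841%, 0.826%, 0.823% and 0.822% in ErbB4 -/- replicates 1 to 4. Apart from WT replicate 1, the 7 libraries lay close together and the groups overlapped. The mean was 0.904% ± 0.144 (SD, n = 4) in WT and 0.828% ± 0.00869 (SD, n = 4) in ErbB4 -/- libraries, and the two-sided exact permutation p over 70 assignments was 0.343, where the design allows no p under 0.0286. Without WT replicate 1 the difference of the means, ErbB4 -/- minus WT, went from -0.0766 to -0.00475 percentage points. In a bulk sample, fewer cells of a type and less RNA per cell cannot be told apart in such a share.

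**Figure D4:**
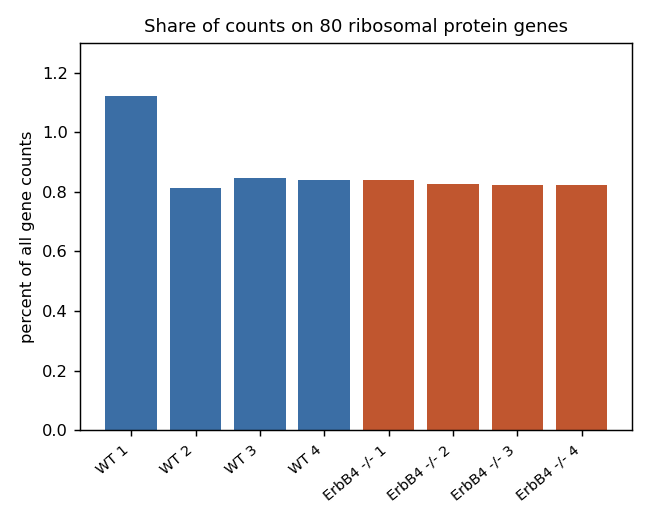
Percent of all gene counts that fell on 80 ribosomal protein genes (y axis) in each of 4 WT and 4 ErbB4 -/- libraries (x axis). WT replicate 1 reaches 1.12%, and the other 7 libraries lie between 0.814% and 0.845%.

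The balance of the subunits did not separate the groups. Counts on large subunit genes were 1.19, 1.25, 1.24 and 1.14 times those on small subunit genes in WT replicates 1 to 4, and 1.21, 1.19, 1.23 and 1.22 times in ErbB4 -/- replicates 1 to 4. WT replicate 1 was not apart here, and the lowest ratio was that of WT replicate 4. On the log2 scale the mean was 0.27 ± 0.06 (SD, n = 4) in WT and 0.28 ± 0.02 (SD, n = 4) in ErbB4 -/- libraries, with a two-sided exact permutation p of 0.829.

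The most counted members illustrate the pattern of the set. Rpl8 was counted at 886, 597, 617 and 637 CPM in WT replicates 1 to 4 and at 612, 594, 595 and 628 CPM in ErbB4 -/- replicates 1 to 4. Only WT replicate 1 was apart, and its log2 fold change was -0.17 (SE 0.11) with all libraries and -0.02 (SE 0.04) without it. Rps3, which also acts as a DNA repair endonuclease, was at 832, 575, 673 and 667 CPM in WT and 620.2, 651, 568 and 613 CPM in ErbB4 -/- libraries. The fitted log2 fold change was -0.16 (SE 0.10) with all libraries and -0.06 (SE 0.06) without WT replicate 1, and the groups overlapped.

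The proteins of the ribosomal stalk, which recruits elongation factors, comprise Rplp0 at its base and the acidic Rplp1 and Rplp2. Rplp0 was counted at 513, 539, 390.5 and 247 CPM in WT replicates 1 to 4 and at 402, 398, 402 and 252 CPM in ErbB4 -/- replicates 1 to 4. It was the member with the largest spread within groups, an SD of 0.44 on the log2 scale, and its lowest library in each group was replicate 4. Its log2 fold change was -0.22 (SE 0.22), which did not pass the edgeR test with an adjusted p of 0.832. With the sex-linked pattern as a covariate the direction turned, to 0.56, in a fit whose WT arm is in effect WT replicate 4 alone. The value was -0.41 (unadjusted edgeR p 0.029) without WT replicate 4, but -0.08 without WT replicate 2, -0.08 without ErbB4 -/- replicate 4 and -0.11 without WT replicate 1. Rplp0 had 358 single-copy windows of 902, and the central window of its longest coding exon had its nearest other place at 1 mismatch, marked by the capital.

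Rplp0: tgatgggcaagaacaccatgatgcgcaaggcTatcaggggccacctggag

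This window lies at chr5:116010856-116010905 (NCBIM37, plus strand) and has 4 other places within 2 mismatches. Rplp1 was at 324, 222, 229 and 241 CPM in WT and 229, 221, 224 and 235 CPM in ErbB4 -/- libraries. In Rplp1, replicate 4 was not the lowest library of either group. Rplp2 was at 178, 119.7, 121 and 134 CPM in WT and 126, 121, 117 and 116 CPM in ErbB4 -/- libraries, so its lowest ErbB4 -/- library was also replicate 4, close to replicate 3, and the fitted log2 fold change was -0.21 (SE 0.11) with an adjusted p of 0.81 in edgeR, and -0.06 (SE 0.05) without WT replicate 1. For both genes the highest library was WT replicate 1.

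**Figure D5:**
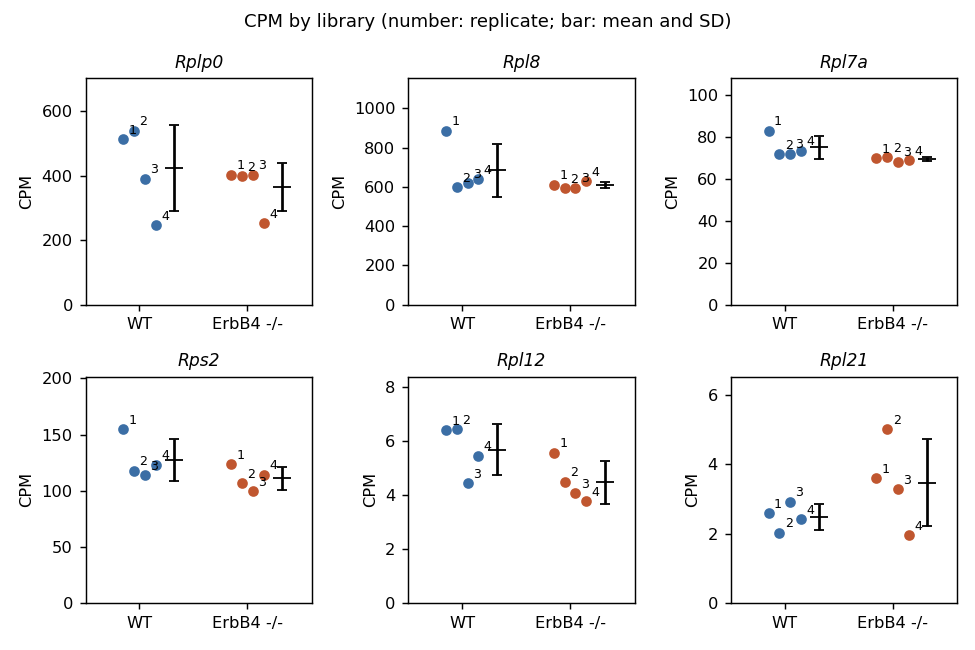
CPM (y axes, each from 0) of Rplp0, Rpl8, Rpl7a, Rps2, Rpl12 and Rpl21 in 4 WT and 4 ErbB4 -/- libraries (points, numbered by replicate) with the mean and SD of each group (bars). Rplp0 is lowest in replicate 4 of both groups, Rpl8, Rpl7a and Rps2 are highest in WT replicate 1, and the groups overlap for all genes except Rpl7a.

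Of the members with the lowest p-values, those named here for it were chosen after their values were seen. Rpl12, a protein at the base of the stalk, had the smallest unadjusted p, 0.0578, and the lowest log2 fold change, and its adjusted p in edgeR was 0.81. Its values were 6.38, 6.44, 4.43 and 5.44 CPM in WT replicates 1 to 4 and 5.57, 4.48, 4.05 and 3.77 CPM in ErbB4 -/- replicates 1 to 4. WT replicates 3 and 4 lay within the ErbB4 -/- range, and the log2 fold change was -0.34 (SE 0.16), or -0.27 (SE 0.17) without WT replicate 1. It was also -0.27 without WT replicate 2 or ErbB4 -/- replicate 4. The value was -0.44 (unadjusted edgeR p 0.017) without WT replicate 3 and -0.46 (unadjusted edgeR p 0.016) without ErbB4 -/- replicate 1. With the replicate block the unadjusted edgeR p was 0.024, and without a low-count filter 0.0482. Rps2, a small subunit protein, was at 155, 118, 114 and 123 CPM in WT and 123, 107, 99.4 and 114 CPM in ErbB4 -/- libraries. The fitted log2 fold change was -0.20 (SE 0.10) and -0.09 (SE 0.07) without WT replicate 1.

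Rpl7a was the only one of the 80 members whose groups did not overlap in CPM, against 3.37% of all tested genes. It was counted at 83.0, 71.7, 71.9 and 73.3 CPM in WT replicates 1 to 4 and at 69.9, 70.3, 68.2 and 68.9 CPM in ErbB4 -/- replicates 1 to 4. The log2 fold change was -0.11 (SE 0.06) and the adjusted p in edgeR was 0.81, and without WT replicate 1 the log2 fold change was -0.06 (SE 0.04).

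Among the 6 members with a log2 fold change above 0, Rpl21 and Rpl23a, both large subunit proteins, and the X-linked Rpl10 had the largest values. Rpl21 was at 2.59, 2.03, 2.92 and 2.42 CPM in WT and 3.60, 5.03, 3.29 and 1.96 CPM in ErbB4 -/- libraries. ErbB4 -/- replicate 4 was the lowest of all 8 libraries and replicate 2 the highest. The log2 fold change of 0.48 (SE 0.24) had an unadjusted p of 0.0739 and an adjusted p of 0.81 in edgeR. It was 0.25 without ErbB4 -/- replicate 2 and 0.66 (unadjusted edgeR p 0.0061) without ErbB4 -/- replicate 4. Rpl23a lay between 0.808 and 0.901 CPM in WT and between 0.816 and 1.15 CPM in ErbB4 -/- libraries. The fitted change was 0.19 (SE 0.21), and 0.08 without ErbB4 -/- replicate 1. Rpl10 lay between 4.54 and 5.25 CPM in WT and between 5.07 and 5.52 CPM in ErbB4 -/- libraries, and the fitted change was 0.13 (SE 0.11). None of these 3 members had a single-copy coding window. Rps12 at 0.04 (SE 0.16) and Rpl10a at 0.02 (SE 0.16) were next in order. At the other end, Rps23, at the decoding centre, was at -0.21 (SE 0.17), and Rpl5, a partner of 5S rRNA, was at -0.21 (SE 0.16), and without WT replicate 1 they were at -0.17 (SE 0.19) and -0.04 (SE 0.13).

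Members with roles outside the ribosome or with separate control were also examined. Rps6, the substrate of S6 kinases, was at 10.5, 7.31, 8.32 and 8.23 CPM in WT and 8.51, 6.98, 8.11 and 8.74 CPM in ErbB4 -/- libraries, and the fitted log2 fold change was -0.09 (SE 0.13). Rps27a, made as a fusion with ubiquitin, had a log2 fold change of -0.10 (SE 0.15) with all libraries and -0.0044 (SE 0.15) without WT replicate 1. Rpsa, which also serves as a laminin receptor at the cell surface, was at 11.7, 7.63, 7.30 and 8.21 CPM in WT and 7.90, 7.04, 7.60 and 8.14 CPM in ErbB4 -/- libraries. The fitted log2 fold change was -0.18 (SE 0.15), and -0.01 (SE 0.10) without WT replicate 1. None of the 4 X-linked members, Rpl10, Rpl36a, Rpl39 and Rps4x, had an unadjusted p under 0.05. Rps4x was at 158, 119, 136 and 122 CPM in WT and 125, 129, 128 and 128 CPM in ErbB4 -/- libraries. Rpl39, a short protein of the exit tunnel, was at 39.1, 21.4, 27.96 and 24.99 CPM in WT and 27.01, 24.7, 25.5 and 25.7 CPM in ErbB4 -/- libraries. Rpl36a was at 2.32 to 3.19 CPM in WT and 2.09 to 3.13 CPM in ErbB4 -/- libraries. The highest library of Rps4x, Rpl39 and Rpl36a was again WT replicate 1.

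Minor paralogs can replace their partner in part of the ribosomes. Of 7 pairs considered, 4 had both genes kept, and Rps4l was matched through its RefSeq synonym Rps4y2, which RefSeq lists as a transcribed pseudogene. Counts on Rpl22l1 were 0.120, 0.108, 0.116 and 0.104 times those on Rpl22 in WT replicates 1 to 4 and 0.109, 0.0994, 0.110 and 0.116 times in ErbB4 -/- replicates 1 to 4. Counts on Rpl7l1, which acts mainly in the assembly of the large subunit, were 0.374, 0.384, 0.401 and 0.440 times those on Rpl7 in WT and 0.410, 0.387, 0.388 and 0.389 times in ErbB4 -/- libraries. Counts on Rps27l were 21.98, 24.3, 34 and 27.6 times those on Rps27 in WT and 29.9, 20.8, 29.7 and 24.8 times in ErbB4 -/- libraries. Rps27 had no single-copy coding window of 203 and Rps27l had 105. Counts on Rps4y2 were 0.217, 0.235, 0.154 and 0.256 times those on Rps4x in WT and 0.247, 0.203, 0.156 and 0.202 times in ErbB4 -/- libraries. Single-copy coding windows were also unequal in the pairs other than Rps27l and Rps27. They numbered 55 in Rpl22l1 and 231 in Rpl22, 538 in Rpl7l1 and 171 in Rpl7, and 607 in Rps4y2 and 72 in Rps4x. The part of read placement in the ratios of all 4 pairs was not tested, and they compare counts, not levels of expression.

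The groups overlapped for all 4 pairs. Differences of the mean log2 ratio, ErbB4 -/- minus WT, were -0.04 for Rpl22l1, -0.02 for Rpl7l1, -0.03 for Rps27l and -0.09 for Rps4y2. The two-sided exact permutation p-values were 0.6, 0.829, 0.886 and 0.6, and all were 0.886 after adjustment over the 4 pairs. For Rps4y2 the lowest library in each group was replicate 3.

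Other genes of the translation machinery, from lists made with earlier results of these data known, gave a background for the members. The 4 ribosomal proteins that the symbol rule leaves out and that were tested were all below 0, at a median of -0.10, and 0.02 with 1 of 4 below 0 without WT replicate 1. Of 46 ribosome assembly genes, 39 were below 0, against 50.8% of all tested genes, with a median of -0.06. An unadjusted p under 0.05 was found for 1 of them, against 5.53% of all tested genes. This was Ltv1, a small subunit assembly factor, at -0.19 (SE 0.08). Without WT replicate 1, 35 of 46 were below 0, against 50.6% of all genes tested, with a median of -0.03. Ltv1 then had an unadjusted edgeR p of 0.0861. In that fit 2 other assembly genes below 0 and 1 above 0 had an unadjusted p under 0.05, against 5.93% of all genes tested. Of 35 translation factors, 31 were below 0, with a median of -0.08, and 22 were without WT replicate 1, with a median of -0.02. Without that library, 1 factor below 0 and 2 above 0 had an unadjusted p under 0.05. Eif2s3x, the X-linked gamma subunit of initiation factor 2, was the gene of that list with an unadjusted p under 0.05 with all libraries, at -0.41 (SE 0.12). It was at 25.3, 25.5, 27.2 and 17.5 CPM in WT and 17.2 to 18.9 CPM in ErbB4 -/- libraries, so WT replicate 4, with low Xist, lay within the ErbB4 -/- range. The 26 growth and TOR regulators had 12 below 0 and a median of 0.01, and the 12 tested chaperones and surveillance factors of free ribosomal proteins had 8 below 0 and a median of -0.03. Without WT replicate 1, 17 of the 26 regulators and 9 of the 12 chaperones and surveillance factors were below 0, with medians of -0.02 and -0.03. No gene of these lists had an adjusted p under 0.05 in edgeR.

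Marker lists of cell types were set beside the members. The 18 cortical progenitor and cell cycle genes had 17 below 0, with a median of -0.19, and 6 with an unadjusted p under 0.05, against 5.53% of all tested genes. Without WT replicate 1 the median was -0.14 with 16 below 0. An unadjusted p under 0.05 was then found for 4 genes below and 2 above 0, against 5.93% of all genes tested. The 13 tested cortical neuron genes had 0 below 0, 2 above 0 with an unadjusted p under 0.05 and a median of 0.11, or 0.09 with 1 below 0 without WT replicate 1. Without that library the medians of these lists moved less than the members' median did, from -0.13 to -0.0018. Of the ganglionic eminence markers 9 of 15 were below 0, of the meningeal and vascular markers 4 of 13, of the erythroid markers 3 of 7 and of the microglia markers 4 of 10. The erythroid list held 2 genes with an unadjusted p under 0.05, the embryonic globins Hbb-y at -1.72 (SE 0.45) and Hba-x at -1.23 (SE 0.31). In replicate 4, Hbb-y was at 13.9 CPM in WT and 18.3 CPM in ErbB4 -/-, and Hba-x at 4.87 and 5.07 CPM. Both genes thus overlapped between the groups. The ganglionic eminence list held 1 gene with an unadjusted p under 0.05, below 0, the meningeal and vascular list 1, above 0, and the microglia list 0. The summed level of the erythroid list was 34.5 to 58.7 CPM in WT, with the highest value in WT replicate 1, and 24.9 to 37.7 CPM in ErbB4 -/- libraries. The part of cell composition in the members' values was not tested.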

How the data were processed

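Single-end reads of polyA-selected, unstranded libraries were mapped by the authors to mm9 with HISAT and counted per gene with HTSeq, and the deposited files hold raw counts per gene symbol, with no normalization. Versions, annotation and the treatment of reads with several places were not given in the sources used here. The authors' table of fold changes and p-values was not used. Members and gene lists were chosen with earlier results of these data known.

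CPM values were scaled to the total of all gene counts. Groups were compared with the quasi-likelihood test of edgeR 4.0.16 under R 4.3.3, after TMM scaling and after removal of low genes by filterByExpr (at least 10 counts, at least 15 in total). P-values of the 14696 genes left were adjusted by the Benjamini-Hochberg method. The fit was tested on simulated data. Library values were compared by exact permutation tests with SciPy 1.17.1. Gene models were GENCODE vM1 on NCBIM37, with the coding blocks of the shortest CCDS transcript, or of the longest coding transcript. DESeq2 1.42.0 and limma 3.58.1 were alternatives.

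Named members were those with an unadjusted p under 0.05 (none), the 5 largest and 5 smallest fold changes, the 5 highest and 5 lowest per length, paralog pairs, X-linked members, Rpsa, Rplp0, Rplp1, Rplp2, Rps6 and Rps27a. Some items are not reported here. Other members were chosen after their values were seen.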

Additional observations from a re-analysis of the deposited data

Results flagged for a closer look

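In groups of 4 libraries, a value was singled out when its gap to the nearest other library exceeded 0.829 of the group's range, which chance gives in about 1 in 20 groups. Of 76 groups of values checked, 4 met this. The share of counts on the members was 1.12% in WT replicate 1, the highest of its group. Rpl8 was at 886 CPM in the same library. Rplp0 was at 252 CPM in ErbB4 -/- replicate 4, the lowest of its group. The log2 ratio of Rpl7l1 to Rpl7 was -1.29 in ErbB4 -/- replicate 1, the highest of its group. Over all 80 members, 15 (18.8%) had WT replicate 1 as such a high value, against 3.19% of all tested genes.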

How the results depend on the processing

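No member had an adjusted p under 0.05 in any of the 18 alternative fits. Over all genes, edgeR called 4 and DESeq2 called 23. The number with an unadjusted p under 0.05, which was 0, became 1 without a low-count filter, 2 with the replicate block and 1 with the sex-linked pattern as a covariate (1.25%, 2.5% and 1.25% of members, against 5.42%, 6.97% and 1.8% of all genes tested), and lay between 0 and 8 when single libraries were left out. It was 8 without WT replicate 2, 6 without WT replicate 3, 2 without WT replicate 4, 2 without ErbB4 -/- replicate 1 and 1, the higher Rpl21, without ErbB4 -/- replicate 4, or 10%, 7.5%, 2.5%, 2.5% and 1.25% of members, where 9.4%, 5.78%, 4.95%, 3.63% and 7.73% of all genes tested had such a p. Members below 0 lay between 41 (without WT replicate 1) and 76, and their median log2 fold change between -0.17 and -0.0018. The sex-linked covariate gave a median of -0.05 with 52 of 80 below 0, and under it Rplp0 was at 0.56. That fit in effect compares 1 WT library, replicate 4, with the 4 ErbB4 -/- libraries, so these values are no check on stability.

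Over all tested genes, deviations of same-numbered libraries correlated at 0.08, 0.13, 0.04 and 0.02, not all over 0.1, so the numbers were not used as pairs. These were all above 0, while correlations between libraries of other numbers lay on both sides of 0, from -0.18 to 0.15. A shared structure by number is thus not excluded. Over the members alone the same-numbered correlations were -0.36, 0.34, 0.22 and 0.12, and the unadjusted edgeR p of Rplp0 went from 0.336 to 0.0693 with the block. With the replicate block the members' median was -0.12 with 74 below 0, and the sign-flip p of the share was 0.25. The paired tests of the subunit ratio and of the 4 pairs called nothing, since the design allows no sign-flip p under 0.125.

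With 1 library left out at a time, the difference in share lay between -0.107 and -0.00475 percentage points. That of the log2 subunit ratio lay between -0.0179 and 0.0272, with -0.000298 without ErbB4 -/- replicate 3. Those of the pair ratios lay between -0.0773 and -0.00111 for Rpl22l1, -0.0514 and 0.0261 for Rpl7l1, -0.122 and 0.0852 for Rps27l, and -0.238 and 0.0308 for Rps4y2. The range of levels per length was 500.1-fold by coding length.

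Of the 32 named members, 18 changed sign in at least 1 alternative, with no call at stake. For Rplp0, Rpl5 and Rpl7 the only such change was under the sex-linked covariate, which is no check on stability. With the length trend removed, log2 fold changes turned to 0.00893 for Rpl22, 0.0399 for Rpl22l1, 0.0107 for Rpl30, 0.0138 for Rpl32, 0.0107 for Rpl36a, 0.00456 for Rpl4, 0.00749 for Rps27, 0.000719 for Rps27a, 0.0201 for Rps4x and 0.0109 for Rps6. With the sex-linked covariate they turned to 0.0431 for Rpl22, 0.10 for Rpl22l1, 0.0417 for Rpl39, 0.0377 for Rpl4, 0.0532 for Rpl5, 0.0586 for Rpl7, 0.50 for Rpl9 and 0.0617 for Rps4x. With single libraries left out, the ranges were -0.0813 to 0.11 for Rpl10a, -0.0841 to 0.0597 for Rpl22, -0.15 to 0.0487 for Rpl22l1, -0.17 to 0.13 for Rpl24, -0.21 to 0.063 for Rpl30, -0.18 to 0.00136 for Rpl32, -0.26 to 0.0533 for Rpl39, -0.13 to 0.0351 for Rpl4, -0.31 to 0.00278 for Rpl9, -0.0805 to 0.12 for Rps12, -0.25 to 0.0835 for Rps27, -0.13 to 0.0196 for Rps4x and -0.16 to 0.0241 for Rps6. The causes were not tested. The 28 members under 10 CPM had few counts, which limits the precision of their values.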
